A study of Mus musculus with 24 samples.

Results

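The genes described here encode the Cyp2 and Cyp3a cytochrome P450 enzymes of mouse liver. They were taken as every gene of the array whose symbol begins with Cyp2 and a subfamily letter, or with Cyp3a, followed by a number, and which had a probe set annotated to that symbol alone. This gave 50 genes, each with 1 probe set, of the 19938 named genes measured. By subfamily they were 2 Cyp2a, 5 Cyp2b, 13 Cyp2c, 10 Cyp2d (with the pseudogene Cyp2d37-ps), 6 Cyp2j and 6 Cyp3a genes, and 1 gene each of Cyp2e, Cyp2f, Cyp2g, Cyp2r, Cyp2s, Cyp2t, Cyp2u and Cyp2w. A further 5 probe sets carried several P450 symbols at once and were left out, so Cyp2a4, Cyp2a5, Cyp2c40, Cyp2c69, Cyp3a41a, Cyp3a41b and Cyp3a59 had no probe set of their own and are not described.

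Livers came from male C57Bl/6 mice on 24 arrays, 1 mouse per array, in 4 groups of 6. The groups paired a diet based on lard or on menhaden fish oil with a conventional (microbe-carrying) or germ-free (microbe-free) status. All 4 groups ate 45% of their energy as fat for 11 weeks and were fasted for 4 hours before sampling, so no group received a low-fat diet. The labels give the age as 11 weeks without saying whether this was at the start of feeding or at sampling. The comparisons ask how liver RNA differed between the diets in each status, and between germ-free and conventional mice on each diet. A status difference cannot be told apart from other differences between germ-free and conventional mice, such as in colony or housing.

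P450 enzymes of families 2 and 3 sit in the endoplasmic reticulum, carry a haem group, and oxidise drugs, steroids, bile acids and polyunsaturated fatty acids with electrons from the reductase Por. The nuclear receptors CAR (Nr1i3) and PXR (Nr1i2) sense foreign compounds and bile acids and induce several of them, with Cyp2b10 and Cyp3a11 the usual readouts in mouse liver. Many Cyp2 genes also follow the sex-dependent rhythm of growth hormone, fall during inflammation, and follow the day-night clock through the transcription factor Dbp and its relatives.

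The mean log2 signal of 14 hepatocyte markers lay between 13.33 and 13.41 in every mouse, and none of the 14 passed the test in any comparison. Mice 3 and 4 of the fish oil germ-free group differed by an SD of 0.123 (log2) over the 300 most variable named genes, against 0.349 for the next closest of 60 within-group pairs, and were averaged and counted as 1 sample, here called mouse 3+4, which left n = 5 in that group and n = 6 in each other. Array signals reached at most 14.29 to 14.5. Probe sets near this ceiling, such as those of Cyp2e1 and Cyp2f2, have little room to show a rise. The hepatocyte markers, with a mean signal near it, share this limit. Their steadiness therefore does not show that hepatocyte content was constant. Of the 50 genes, 18 had a mean signal under the median of all genes (7.01), where differences are small on this array. Fewer cells of a type and less RNA per cell cannot be told apart in whole liver. Some mice stood apart. In germ-free mice 5 and 6 the upper quartile of array signals was 8.427 and 8.422 on fish oil and 8.424 and 8.436 on lard. The other germ-free arrays read 8.511 to 8.571, and fish oil conventional mouse 2 read 8.425. The cause of this shift was not tested. In fish oil conventional mice 5 and 6 the acute phase gene Saa1 read 11.64 and 10.81, whereas mice 1 to 4 read 6.03 to 7.61. An index of clock phase, Dbp minus Arntl, was 2.49 and 3.66 in fish oil conventional mice 3 and 4 but between -2.04 and 0.05 in mice 1, 2, 5 and 6. In fish oil germ-free mice 5 and 6 it was 0.12 and -0.77, against 3.24 to 4.09 in the others, and in the 12 lard mice it lay between 1.96 and 4.59. Among lard germ-free mice, the male-biased gene Hsd3b5 read 8.94 and 11.2 in mice 5 and 6 but 6.12 to 6.81 in mice 1 to 4.

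Calls between the diets were most numerous in germ-free mice. There, 14 of the 50 genes were higher and 3 lower than on lard (limma, Benjamini-Hochberg adjusted p under 0.05 over all genes), which is 34% of the P450 genes against 13.2% of all genes. By direction, 28% of the P450 genes were higher, against 4.58% of all genes, and 6% were lower, against 8.59%. The fish oil range lay wholly above the lard range for 13 genes and wholly below it for 4, where 4.64% and 7.35% of all genes did so. The 14 that rose were 7 Cyp2c genes, 5 Cyp2d genes, Cyp3a11 and Cyp2g1, and the 3 that fell were Cyp2a22, Cyp2c39 and Cyp2s1. In conventional mice, 1 gene passed, Cyp2d40, which was lower (2% of the P450 genes, where 0.808% of all genes passed and 0.602% were lower); 15 of the 50 had an unadjusted p under 0.05, against 16.6% of all genes. The median log2 difference between fish oil and lard was 0.117 over the P450 genes and 0.003 over all genes in germ-free mice, and 0.056 and 0.013 in conventional mice. The difference between the germ-free and conventional diet effects passed for 1 gene, Cyp2s1, so for the others a call in germ-free mice alone does not show that the effects differed. Of the 17 genes called in germ-free mice, 11 had a signal above the median of all genes. Of all 50 P450 genes, 32 did. The shares of P450 genes and of all genes called were not matched on signal. Without germ-free mice 5 and 6 of both diets 8 of the 17 calls remained. After adjustment for the clock index 8 also remained, and 7 of them were higher in each case. The share of all genes called was not taken in these fits, so a loss particular to P450 genes is not shown.

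**Figure D1:**
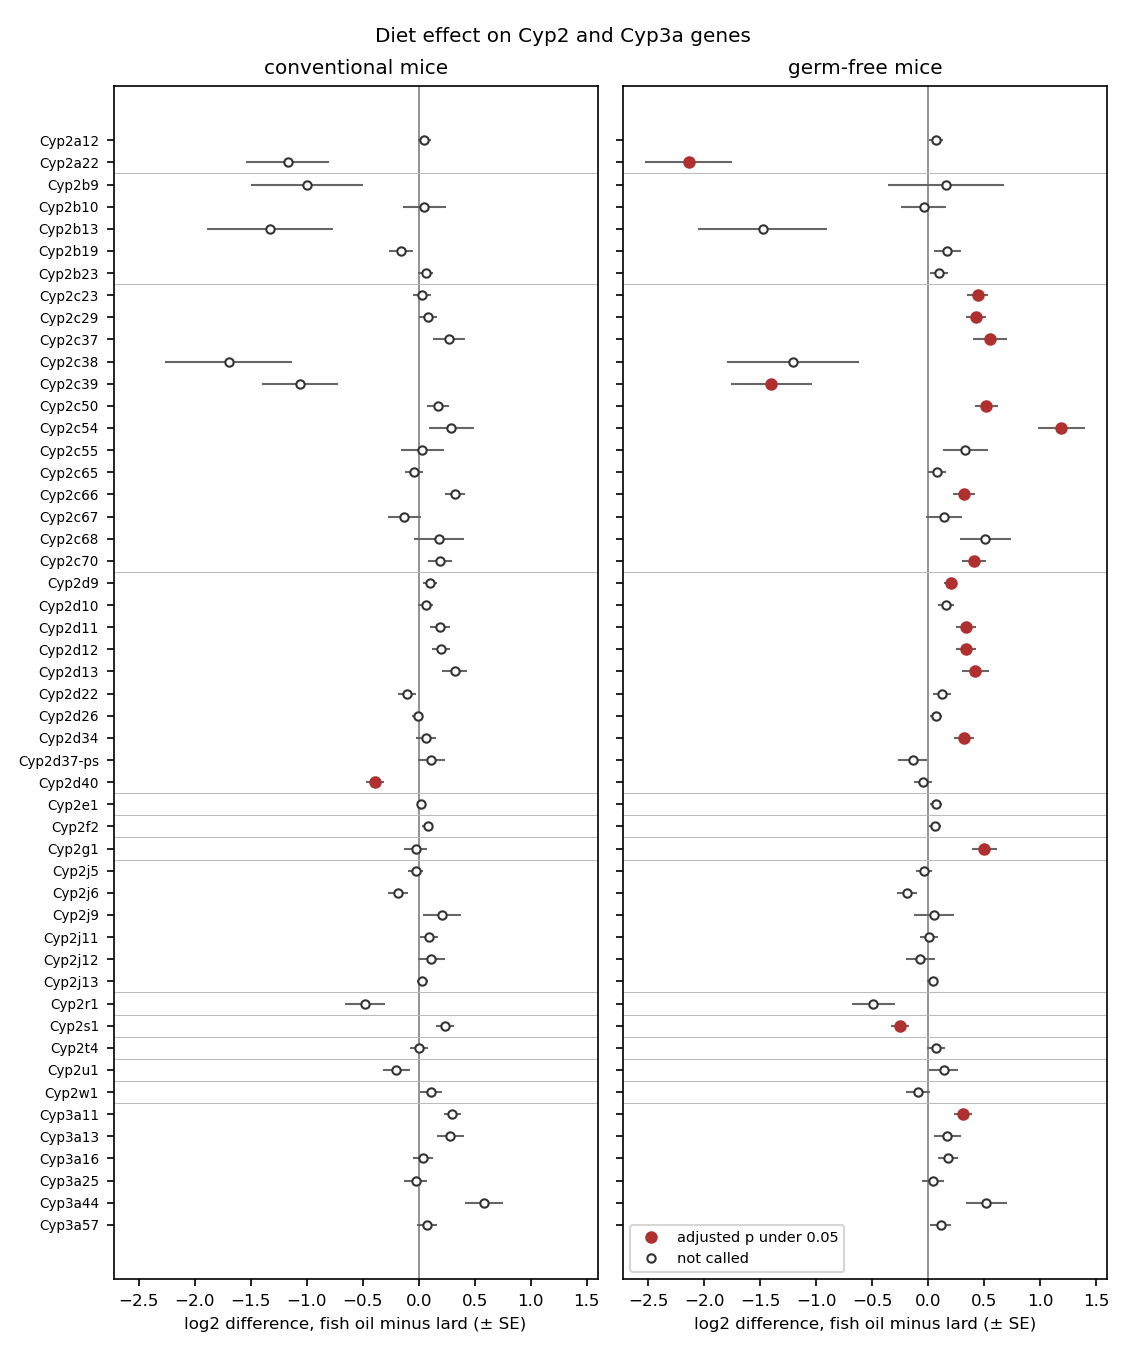
Log2 difference between fish oil and lard (± SE from limma) for each of the 50 genes, in conventional mice (left) and germ-free mice (right), ordered by subfamily. Filled points passed the adjusted threshold: 1 gene on the left and 17 on the right, 14 of them above 0.

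Cyp2c genes made up 7 of the 14 that rose. The mouse Cyp2c enzymes oxidise arachidonic acid and other polyunsaturated fatty acids as well as drugs. In germ-free mice on fish oil, 7 of 13 rose (Cyp2c23, Cyp2c29, Cyp2c37, Cyp2c50, Cyp2c54, Cyp2c66 and Cyp2c70), 1 fell (Cyp2c39) and 5 did not pass the test. Cyp2c37, Cyp2c54, Cyp2c50 and Cyp2c70, all of which rose, are listed next to each other in this order on chromosome 19 in the RefSeq annotation. Cyp2c66 and Cyp2c29, which rose, are followed there by Cyp2c39, which fell, and by Cyp2c38, which did not pass. The 250 bases before the start of Cyp2c37 and Cyp2c50 are among the most alike of the 86 within-subfamily pairs compared, with 215 of 250 bases matched (86%, median of the pairs 63.6%) after alignment. They are shown because the genes lie near each other and both rose, from RefSeq on build GRCm38.p6, at chr19:39992174-39992423 and chr19:40089429-40089678 on the plus strand, with capitals for bases that have no identical partner in the alignment.

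Cyp2c37: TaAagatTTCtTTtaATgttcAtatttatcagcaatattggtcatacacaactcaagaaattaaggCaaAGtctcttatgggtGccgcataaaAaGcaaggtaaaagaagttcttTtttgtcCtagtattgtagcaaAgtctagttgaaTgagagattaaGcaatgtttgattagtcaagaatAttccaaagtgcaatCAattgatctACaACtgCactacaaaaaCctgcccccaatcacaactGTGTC

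Cyp2c50: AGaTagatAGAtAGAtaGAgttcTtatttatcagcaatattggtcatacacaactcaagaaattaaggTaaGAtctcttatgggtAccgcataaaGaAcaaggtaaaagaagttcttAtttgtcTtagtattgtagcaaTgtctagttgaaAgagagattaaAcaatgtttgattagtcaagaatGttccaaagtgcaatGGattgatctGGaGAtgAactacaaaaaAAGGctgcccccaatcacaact

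Cyp2c54 rose most among the 14. In fish oil germ-free mice 1, 2, 3+4, 5 and 6 its log2 signal was 12.6, 12.69, 12.63, 12.64 and 12.66. In lard germ-free mice it ranged from 10.83 to 12.39 with a median of 11.41. The groups did not overlap, although lard mouse 6, at 12.39, came close; the other 5 lard mice were at 11.51 or below. The difference was 1.19 ± 0.21 (log2, SE), or 2.29-fold (adjusted p = 0.000439). In conventional mice Cyp2c54 ranged from 11.32 to 12.22 on lard (median 11.87) and from 11.7 to 12.51 on fish oil (median 12.14), a difference of 0.29 ± 0.20 (95% interval -0.12 to 0.70, adjusted p = 0.487). The difference between these diet effects was 0.91 (interval 0.31 to 1.5), which did not pass over all genes (adjusted p = 0.157). Cyp2c54 read 12.64 and 12.66 in fish oil germ-free mice 5 and 6, whose clock index was low. The other 3 samples read 12.6 to 12.69. The diet call in germ-free mice was kept with the clock index as a covariate. Beyond that fit, the part of clock phase was not tested.

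The other Cyp2c rises were between 1.25-fold and 1.47-fold. Cyp2c37 read 12.95, 12.94, 13.03, 13 and 13.02 in fish oil germ-free mice 1, 2, 3+4, 5 and 6 and 12.03 to 12.72 (median 12.48) on lard, 1.47-fold higher without overlap (adjusted p = 0.0157). Cyp2c50 read 12.39 to 12.57 on fish oil and 11.82 to 12.22 (median 11.9) on lard, 1.44-fold higher without overlap (adjusted p = 0.00113). Both genes were near their fish oil levels in some conventional mice: Cyp2c37 was 12.97 to 13.05 in fish oil conventional mice 1, 2 and 3 and 12.15 to 12.61 in mice 4, 5 and 6.

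Cyp2c23, an arachidonic acid epoxygenase, read 13.34, 13.35, 13.35, 13.32 and 13.37 on fish oil in germ-free mice. On lard it ranged from 12.82 to 13.17 with a median of 12.84, and the highest value was that of mouse 6. It was 1.36-fold higher without overlap (0.44 ± 0.09, adjusted p = 0.00119). Cyp2c29 went from 12.98 to 13.27 on lard to 13.48 to 13.58 on fish oil, again without overlap and 1.35-fold higher (adjusted p = 0.00147). Cyp2c70, the enzyme that makes mouse muricholic bile acids, rose 1.33-fold, from 12.21 to 12.54 on lard to 12.66 to 12.92 on fish oil (adjusted p = 0.0142). Cyp2c66, of low signal, rose 1.25-fold with overlapping ranges (adjusted p = 0.0314); this call was lost in 7 of the 23 fits that left out 1 sample (adjusted p up to 0.0886). The calls of Cyp2c66 and Cyp2c70 were lost when the clock index entered the fit, and again without germ-free mice 5 and 6, and that of Cyp2c37 when the index entered (adjusted p = 0.056), with nearly the same differences.

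**Figure D2:**
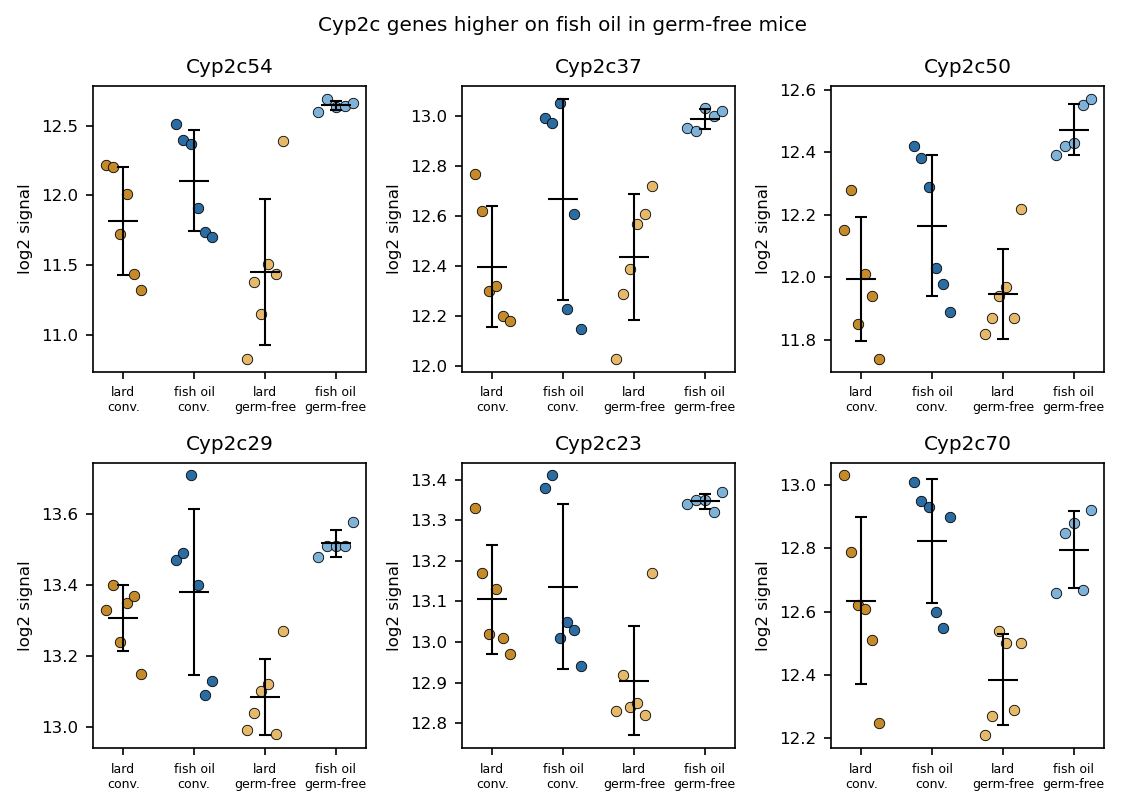
Log2 signal of 6 Cyp2c genes in each mouse (points, 6 per group and 5 in fish oil germ-free) with the group mean and SD (bars); the vertical scale differs between panels. In germ-free mice every fish oil point lies above every lard point, while the conventional groups overlap.

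Among the Cyp2c genes that did not pass, Cyp2c55 ranged from 5.54 to 7.04 and Cyp2c65 from 3.39 to 3.86 over all mice, the latter under the 25th percentile of all probe sets, so no fold is given for it. Cyp2c67 and Cyp2c68 differed between the diets in germ-free mice by 0.14 and 0.51 (adjusted p = 0.662 and 0.168). RMA signals of such close relatives can hold cross-hybridised RNA, so members with shared probe sequence are not independent measurements.

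Cyp2a22 and Cyp2c39 fell on fish oil in germ-free mice. Cyp2c38 passed for diet in neither status in the main fit. These genes all varied widely among conventional mice. Cyp2c39 is known as a retinoic acid hydroxylase. Cyp2a22 read 7.64, 7.69, 7.66, 6.73 and 7.82 in fish oil germ-free mice 1, 2, 3+4, 5 and 6 and 9.2 to 9.97 (median 9.72) in lard germ-free mice. The groups lay more than a log2 unit apart, and Cyp2a22 was 4.41-fold lower on fish oil (-2.14 ± 0.39, adjusted p = 0.000667). Cyp2c39 read 7.22, 7.3, 7.33, 7.11 and 7.21 on fish oil and 8.4 to 8.9 (median 8.58) on lard, 2.63-fold lower (-1.40 ± 0.36, adjusted p = 0.0106). Cyp2c38 read 9.67 to 10.43 on fish oil and 11.05 to 11.48 on lard, also without overlap, but its difference of -1.21 ± 0.59 did not pass (adjusted p = 0.206). The common estimate of spread for that gene included the fish oil conventional group, where its SD was 2.02. This was the highest of any P450 gene above the median signal in any group. With the 2 groups alone, with array weights or with Saa1 as a covariate, the germ-free diet difference of Cyp2c38 passed.

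In fish oil conventional mice these 3 genes split the group. Cyp2c38 read 8.97, 7.93, 11.16, 11.13, 6.55 and 6.89 in mice 1 to 6. Cyp2c39 read 5.87, 5.86, 8.03, 7.85, 5.57 and 5.46, and Cyp2a22 read 7.8, 6.42, 8.46, 8.28, 5.93 and 6.42. Mice 3 and 4, the 2 with a clock index above 2, were the highest for all 3 genes, and mice 5 and 6, the 2 with raised Saa1, were the lowest for Cyp2c38 and Cyp2c39. The diet differences in conventional mice were -1.70 for Cyp2c38, -1.06 for Cyp2c39 and -1.17 for Cyp2a22, and none passed (adjusted p = 0.13, 0.117 and 0.114); all 3 passed when fish oil conventional mouse 3, or mouse 4, was left out. Adjusted for the clock index, the germ-free difference of Cyp2c39 was -0.92 (adjusted p = 0.0975) and that of Cyp2a22 was -1.76 (adjusted p = 0.00753). Without germ-free mice 5 and 6 the call of Cyp2c39 was also lost (-1.44, adjusted p = 0.089), while that of Cyp2a22 was kept (-2.16, adjusted p = 0.0128). Fish oil germ-free mouse 5, of low clock index, was the lowest of its group for all 3 genes (6.73 for Cyp2a22, 9.67 for Cyp2c38 and 7.11 for Cyp2c39), and mouse 6, also of low index, read 7.82, 10.37 and 7.21. With Saa1 as a covariate the germ-free calls of Cyp2a22 and Cyp2c39 were kept. Beyond these covariate fits, the part of clock phase and of the acute phase in these values was not tested. Cyp2a12, the other Cyp2a gene and a bile acid hydroxylase, stayed between 12.55 and 12.92 in all mice and passed in no comparison.

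**Figure D3:**
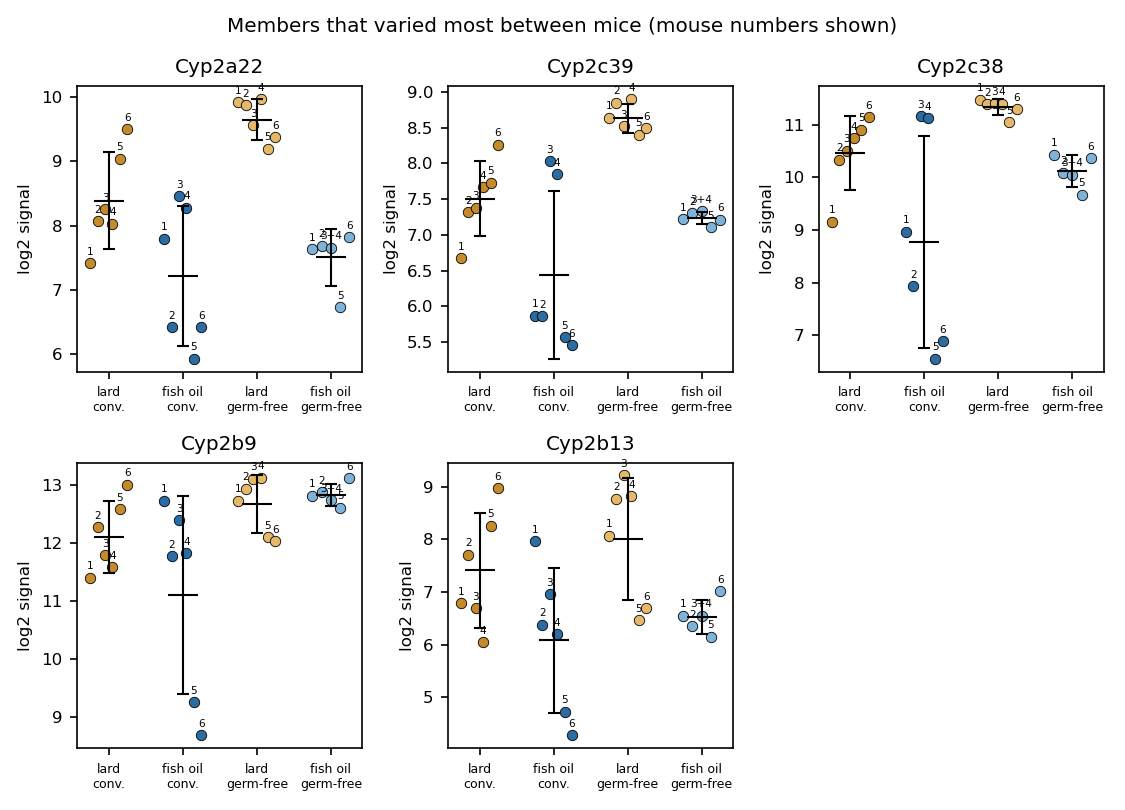
Log2 signal of 5 genes in each mouse, with the mouse number beside each point and the group mean and SD as bars; the vertical scale differs between panels. Fish oil conventional mice 5 and 6 are lowest or near lowest in all 5 panels, and mice 3 and 4 stand above mice 1, 2, 5 and 6 for Cyp2a22, Cyp2c39 and Cyp2c38.

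No Cyp2b gene passed for diet in the main fit. Cyp2b9 and Cyp2b13 are female-biased in mouse liver, and Cyp2b10 is the classical CAR target. The 250 bases before the starts of Cyp2b9 and Cyp2b13 were the most alike of the 86 within-subfamily pairs, with 248 of 250 bases matched (99.2%). They are shown because both genes were lowest in the same mice, from RefSeq on GRCm38.p6 at chr7:26173159-26173408 and chr7:26061245-26061494 on the plus strand. Capitals mark the only differences, T48C and C104T, with the base of Cyp2b9 first and positions counted from the 5′ end.

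Cyp2b9: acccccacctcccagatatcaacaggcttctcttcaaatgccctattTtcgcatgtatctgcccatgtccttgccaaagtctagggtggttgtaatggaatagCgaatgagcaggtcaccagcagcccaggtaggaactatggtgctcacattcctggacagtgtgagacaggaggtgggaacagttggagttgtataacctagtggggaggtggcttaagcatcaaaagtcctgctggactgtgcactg

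Cyp2b13: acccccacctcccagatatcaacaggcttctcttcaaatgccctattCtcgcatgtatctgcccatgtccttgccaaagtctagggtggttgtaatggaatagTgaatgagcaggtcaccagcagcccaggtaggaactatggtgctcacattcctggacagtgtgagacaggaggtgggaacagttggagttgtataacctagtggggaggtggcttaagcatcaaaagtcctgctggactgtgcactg

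Cyp2b9 read 12.73, 11.77, 12.4, 11.82, 9.25 and 8.68 in fish oil conventional mice 1 to 6. Cyp2b13 read 7.96, 6.38, 6.96, 6.2, 4.73 and 4.28 in the same mice. Mice 5 and 6, with raised Saa1, were the lowest of all 23 samples for both genes. Signals of close relatives can hold cross-hybridised RNA, so these genes are not shown to be independent measurements. A link of the promoters to these values was not tested. In the other groups Cyp2b9 stayed between 11.4 and 13.13. Cyp2b9 was 3.30-fold higher in germ-free than in conventional mice on fish oil (1.72 ± 0.52, adjusted p = 0.044), with overlapping ranges. Without fish oil conventional mice 5 and 6 the difference was 0.65 (adjusted p = 0.158), and the call was lost in 15 of the 23 fits that left out 1 sample.

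Cyp2b13 differed by -1.48 ± 0.58 between the diets in germ-free mice (adjusted p = 0.101), where lard mice 1 to 4 read 8.07 to 9.21 and mice 5 and 6 read 6.47 and 6.69. Lard mice 5 and 6 were also the 2 with the higher Hsd3b5. The germ-free diet difference of Cyp2b13 passed with the 2 groups alone and with array weights. It also passed without fish oil conventional mice 5 and 6, and without lard germ-free mouse 5. Cyp2b10 lay between 6.07 and 7.85 in all mice. Its diet difference was 0.05 in conventional mice (95% interval -0.34 to 0.45) and -0.04 in germ-free mice (interval -0.46 to 0.37). Cyp2b10 was 0.50 ± 0.19 higher in germ-free than in conventional mice on lard, which did not pass (adjusted p = 0.233). Cyp2b19 and Cyp2b23, both of low signal, passed in no comparison.

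Of the 10 Cyp2d genes, 5 rose on fish oil in germ-free mice (Cyp2d9, Cyp2d11, Cyp2d12, Cyp2d13 and Cyp2d34). Cyp2d9, the male-biased testosterone 16α-hydroxylase, read 12.54, 12.55, 12.53, 12.56 and 12.64 on fish oil and 12.27 to 12.51 (median 12.35) on lard. The groups were separate by 0.02 at their nearest, and the rise was 1.15-fold (0.20 ± 0.06, adjusted p = 0.0354). Cyp2d13 rose 1.34-fold (adjusted p = 0.0175); 5 of the 6 lard mice were at 10.99 to 11.11 and mouse 6 was at 11.45, within the fish oil range of 11.3 to 11.74. Cyp2d11, Cyp2d12 and Cyp2d34 rose by 0.32 to 0.34 from low signals, with fish oil values above all lard values. The call of Cyp2d9 was lost in 8 of the 23 fits that left out 1 sample, that of Cyp2d34 in 5 and that of Cyp2d13 in 2, those without fish oil germ-free mouse 1 or 2; Cyp2d11 and Cyp2d12 kept theirs in all 23. Of the 5, Cyp2d9, Cyp2d11, Cyp2d12 and Cyp2d34 lost their calls when adjusted for the clock index, and when germ-free mice 5 and 6 were left out. Cyp2d10, Cyp2d22 and Cyp2d26 passed in no comparison and moved by at most 0.16 in any diet or status difference.

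Cyp2d40 was highest in the lard conventional group. It read 10.11 to 10.44 (median 10.23) there, 9.68 to 10.04 (median 9.88) in fish oil conventional mice and 9.68 to 9.99 (median 9.88) in lard germ-free mice; the fish oil germ-free samples read 9.75, 9.95, 9.77, 9.78 and 9.75. The lard conventional range overlapped none of the other 3 groups. In conventional mice it was 1.31-fold lower on fish oil (-0.39 ± 0.08, adjusted p = 0.0322), and on lard it was 1.32-fold lower in germ-free mice (-0.40 ± 0.08, adjusted p = 0.00547); these comparisons share the lard conventional mice. The germ-free diet difference was -0.05 (adjusted p = 0.776), and the difference between the diet effects, 0.34, did not pass (adjusted p = 0.165). The diet call in conventional mice was lost in 6 of the 23 fits that left out 1 sample (fish oil mouse 2, 5 or 6, lard mouse 3, 5 or 6), with adjusted p up to 0.0864, while the status call was kept in all 23.

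Few P450 genes passed between germ-free and conventional mice. On lard 2 of 50 passed, both lower in germ-free mice (Cyp2j9 and Cyp2d40), 4% against 1.82% of all genes, of which 0.687% were lower. On fish oil 3 passed (Cyp2b9 and Cyp2g1 higher, Cyp2j9 lower), 6% against 6.91% of all genes (3.01% higher and 3.89% lower), a share near the background.

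Cyp2j9, a P450 that hydroxylates arachidonic acid, was lower in germ-free mice on both diets. It read 7.96 to 8.55 (median 8.2) in lard conventional and 7.28 to 7.65 (median 7.5) in lard germ-free mice, 1.69-fold lower (-0.75 ± 0.17, adjusted p = 0.0202). On fish oil it read 8 to 9.5 (median 8.28) in conventional mice and 7.87, 7.55, 7.43, 7.61 and 7.24 in germ-free mice, 1.88-fold lower (-0.91 ± 0.18, adjusted p = 0.00299). All 11 germ-free samples lay below all 12 conventional mice. The lard call was lost without lard conventional mouse 2 or 4 or lard germ-free mouse 4 (adjusted p up to 0.0647). It was also lost without germ-free mice 5 and 6 of both diets (adjusted p = 0.0952). The other Cyp2j genes passed in no comparison. Cyp2j5, an arachidonic acid epoxygenase of liver and kidney, stayed between 12.55 and 13.06, and its 4 pairwise differences were within 0.06 of 0. Cyp2j6 was 0.29 higher in germ-free mice on each diet and missed the threshold (adjusted p = 0.0986 on lard and 0.056 on fish oil).

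Cyp2g1, best known from olfactory mucosa, was of low signal here and was highest in the fish oil germ-free group, with 5.56, 6.06, 5.92, 5.6 and 5.94. Lard germ-free mice read 4.94 to 5.51 and fish oil conventional mice 5.23 to 5.49, and neither range overlapped it (1.41-fold, adjusted p = 0.00313, and 1.37-fold, adjusted p = 0.0114). Lard conventional mice read 5.2 to 5.72, and their range did overlap. The difference between the diet effects was 0.53 (adjusted p = 0.105).

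Cyp2s1 was the 1 gene of 50 whose diet effect differed with bacterial status (2% against 0.607% of all genes, 0.391% in this direction). In germ-free mice it was lower on fish oil, at 6.31, 6.23, 6.56, 6.37 and 6.46 against 6.48 to 6.86 on lard (-0.25 ± 0.08, adjusted p = 0.033). That call was lost in 6 of the 23 fits that left out 1 sample, when adjusted for the clock index (adjusted p = 0.0902) and without germ-free mice 5 and 6 (adjusted p = 0.114). In conventional mice it was 6.44 to 6.67 on fish oil and 6.12 to 6.52 on lard, a difference of 0.23 that did not pass (adjusted p = 0.116). The difference between these effects was -0.49 ± 0.11 (adjusted p = 0.0412). Signals were low, the ranges overlapped in both comparisons, and the call of the difference was lost in 15 of the 23 fits that left out 1 sample.

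**Figure D4:**
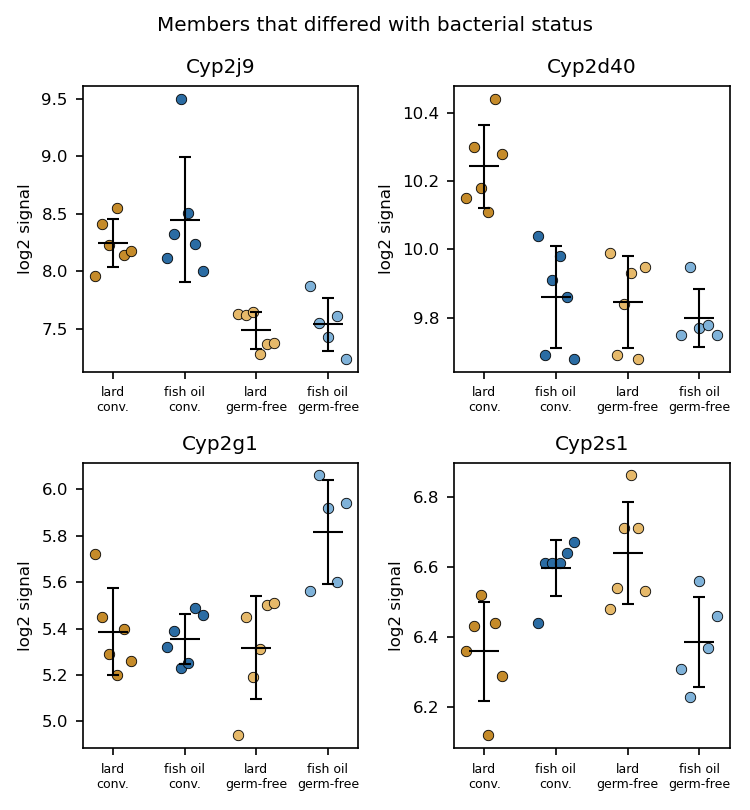
Log2 signal of Cyp2j9, Cyp2d40, Cyp2g1 and Cyp2s1 in each mouse (points) with group mean and SD (bars); the vertical scale differs between panels. Cyp2j9 is lower in both germ-free groups, Cyp2d40 is higher in the lard conventional group alone, and Cyp2g1 is higher in the fish oil germ-free group than in lard germ-free and fish oil conventional mice.

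Of the 6 Cyp3a genes, Cyp3a11, the main PXR-induced Cyp3a enzyme of mouse liver, rose on fish oil in germ-free mice. It read 13.31, 13.17, 13.24, 13.18 and 13.2 there and 12.74 to 13.07 (median 12.94) on lard, without overlap (1.24-fold, 0.31 ± 0.08, adjusted p = 0.0155). The call was lost without germ-free mice 5 and 6 (0.32, adjusted p = 0.0823) and with array medians made equal. In conventional mice it read 12.74 to 13.22 on fish oil and 12.55 to 12.96 on lard, a difference of nearly the same size, 0.30 ± 0.08, that missed the threshold (adjusted p = 0.0644). The difference between the diet effects was 0.00 (95% interval -0.23 to 0.24). Cyp3a44 showed 0.58 ± 0.17 in conventional and 0.52 ± 0.18 in germ-free mice, neither past the threshold (adjusted p = 0.088 and 0.0542). Cyp3a13 and Cyp3a25 passed in no comparison, and Cyp3a16 and Cyp3a57 lay under the 25th percentile of all probe sets.

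Promoters were searched on both strands for 5 motifs, in the 250 bases before each RefSeq start (44 starts of 41 of the 50 genes). The letters CAAAGTCCA, a form of the site of the liver receptor HNF4, stood in 6 of the 44, those of Cyp2c65, Cyp2c67, Cyp2c68, Cyp2c70, Cyp3a11 and Cyp3a16, and in 0.384% of 32851 promoters of all genes. Some of the 6 are close copies, with 80% of bases matched between Cyp3a11 and Cyp3a16 and 75.2% between Cyp2c67 and Cyp2c68. Of these 6 genes, Cyp2c70 and Cyp3a11 rose in germ-free mice on fish oil, as did 28% of the 50 P450 genes. A link of the site to the rise was not tested. The promoters of Cyp2c70 and Cyp3a11 are shown because both rose, on GRCm38.p6 at chr19:40187287-40187536 and chr5:145879855-145880104. Both are on the minus strand and written 5′ to 3′ with the matched letters in capitals. The STAT5 form TTCNNNGAA stood in 2 of the 44 (7.02% of all promoters). The D-box TTATGTAA bound by Dbp (0.819% of all promoters), a CAR element of AGTTCA repeated after 4 bases, and an HNF1 form of GTTAAT and ATTAAC separated by 1 base (0.00913% each) stood in 0 of the 44, which says only that these letters were not in these windows.

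Cyp2c70: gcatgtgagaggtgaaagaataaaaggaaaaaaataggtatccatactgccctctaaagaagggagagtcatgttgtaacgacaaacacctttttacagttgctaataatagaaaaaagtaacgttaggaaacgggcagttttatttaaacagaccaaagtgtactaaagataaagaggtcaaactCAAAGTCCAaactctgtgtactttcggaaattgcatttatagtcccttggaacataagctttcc

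Cyp3a11: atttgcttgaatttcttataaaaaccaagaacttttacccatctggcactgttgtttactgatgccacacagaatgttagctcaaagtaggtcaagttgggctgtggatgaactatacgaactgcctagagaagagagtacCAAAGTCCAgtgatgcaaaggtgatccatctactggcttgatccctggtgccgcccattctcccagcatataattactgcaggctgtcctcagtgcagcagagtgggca

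Among the single-gene subfamilies, Cyp2e1, which oxidises ethanol and acetone, lay between 13.76 and 13.91 in all mice and Cyp2f2 between 13.6 and 13.86, both near the ceiling of the arrays. Their diet differences were within 0.08 of 0. Cyp2r1, a vitamin D 25-hydroxylase, was 0.48 lower on fish oil in conventional and 0.49 lower in germ-free mice without passing (adjusted p = 0.174 and 0.0877). Cyp2u1, a fatty acid hydroxylase, differed by -0.41 between germ-free and conventional mice on lard (adjusted p = 0.0875). Cyp2t4 and Cyp2w1 were of low signal and passed in no comparison.

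**Figure D5:**
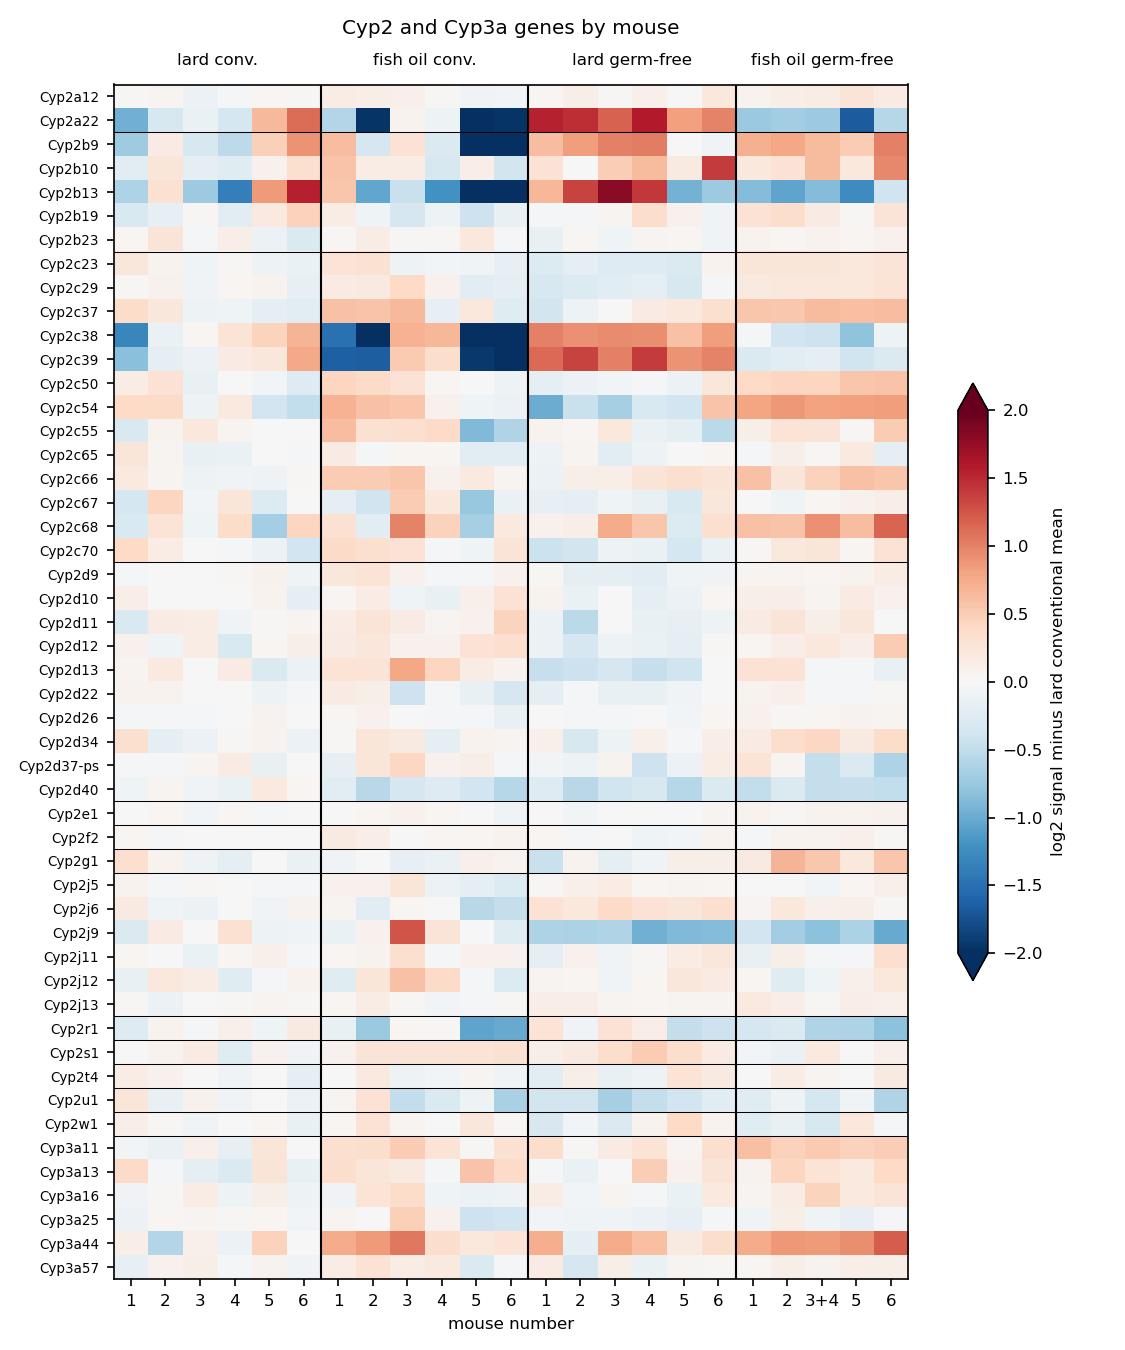
Log2 signal of each of the 50 genes in each mouse, as the difference from the lard conventional mean (colour, cut at 2 in either direction); columns are mice by group and rows are genes by subfamily. The widest colour range is in Cyp2a22, Cyp2b9, Cyp2b13, Cyp2c38 and Cyp2c39, with fish oil conventional mice 5 and 6 at the low end.

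The spread between mice also differed by group. Over the 32 P450 genes above the median signal, the median SD of the log2 signal in conventional mice was 0.155 on lard and 0.245 on fish oil, and in germ-free mice 0.148 on lard and 0.087 on fish oil. Over the 9969 genes above that median it was 0.122, 0.204, 0.121 and 0.12 in the same order. P450 genes thus had the larger median SD in 3 groups and the smaller in fish oil germ-free mice. These sets were not matched on signal, and some of the 32 genes lay near the ceiling of the arrays. The part of the ceiling in these SDs was not tested.

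Known regulators of these genes and other genes of the pathway were read from the same fit, in which 13.2% of all genes passed for diet in germ-free mice (4.58% higher, 8.59% lower). Of 15 nuclear receptors and partners, 2 fell on fish oil in germ-free mice, Ppara, the fatty acid receptor (-0.57, adjusted p = 0.0166), and Nr0b2, a bile acid-induced repressor (-1.02, adjusted p = 0.0408), and none rose, a share near that of all genes. CAR (Nr1i3), PXR (Nr1i2), Rxra and Hnf4a passed in no comparison. Ahr, the dioxin receptor, was higher in germ-free mice on lard (0.73, adjusted p = 0.0175) and on fish oil (1.05, adjusted p = 0.000585). Of 16 other CAR and PXR targets, 2 rose on fish oil in germ-free mice, among them the carboxylesterase Ces2a (1.07, adjusted p = 0.000143), and 2 fell, among them the drug exporter Abcb1a (-1.58, adjusted p = 8.6e-06). Of 11 genes for electron supply and haem, Cpox rose and Cyb5r3 and Uros fell in that comparison, and Alas1, the first enzyme of haem synthesis, was higher in germ-free mice on fish oil (1.31 ± 0.27, adjusted p = 0.00381). Of 12 growth hormone and sex-biased genes other than P450s, 5 rose and 1 fell on fish oil in germ-free mice, with Hsd3b5 up by 4.62 (adjusted p = 2.47e-05). For Hsd3b5 the lard germ-free group stood apart (median 6.78, against 11.96, 12.13 and 12.34 in the lard conventional, fish oil conventional and fish oil germ-free groups): on lard it was lower in germ-free than in conventional mice (-4.02, adjusted p = 0.000198), and the difference between the diet effects passed (4.21, adjusted p = 0.022). Of 15 clock genes, 1 rose and 5 fell in that comparison.

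Markers of other liver cells moved in the same comparison. On fish oil in germ-free mice 7 of 10 stellate cell markers fell (list mean 8.55 to 8.69 against 8.99 to 9.33 on lard), as did 4 of 6 cholangiocyte, 2 of 10 endothelial and 3 of 15 macrophage markers, while 1 macrophage marker rose; 8.59% of all genes were lower in this comparison and 4.58% higher. Between germ-free and conventional mice on fish oil, 8 of 15 macrophage and 7 of 10 endothelial markers were lower, against 3.89% of all genes. Their part in the P450 differences was not tested. The 14 hepatocyte markers passed in neither comparison, but their mean signal lay near the ceiling of the arrays.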

How the data were processed

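Liver RNA of 24 mice was read on the Affymetrix MoGene 1.0 ST array. The authors deposited RMA values as log2 signals. Per the file headers, RMA comprised background correction, quantile normalization and median polish at gene level (array library r4); the submitters' processing notes also name RMA. Quantile normalization removes changes shared by most genes, and median polish can blend relatives that share probe sequence. The 2 deposited tables of log2 values differed by at most 0.005. No genome build is given in the sources used here, so coordinates come only from RefSeq promoters on GRCm38.p6.

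Of 35556 probe sets, 21789 carried 1 gene symbol in the platform annotation, 1621 several and 12146 none; the highest-mean probe set was kept for each of 19938 genes. Group means were fitted over 23 samples with limma 3.58.1 (lmFit, eBayes, R 4.3.3), two-sided, with Benjamini-Hochberg adjustment over all genes in each comparison and a threshold of 0.05. The fit was tested on simulated data with equal, independent spread in every group and changes in the lard germ-free group alone. The simulation did not cover the unequal spread of the real groups. No fold is given where a group mean lay under the 25th percentile of all probe sets (5.09). Precision is limited by the number of arrays. Each p-value sets a difference of group means against the spread between mice, pooled over the groups in the fit. Alternatives changed filters, scaling, variance model, covariates and samples. Genes named with values were the 10 called members of largest difference per comparison, a fixed list of P450 genes, called genes of small p from each pathway list, and remaining members for a full account. The members, lists and motifs were chosen with earlier results of these data known. Por has no probe set annotated to it alone and is not described. Promoter pairs were aligned globally with Biopython.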

Additional observations from a re-analysis of the deposited data

Results flagged for a closer look

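Of 80 groups checked over 20 genes, 8 held a mouse far from the rest of its group by Dixon's ratio at the 95% level; chance gives about 1 group in 20. Among lard germ-free mice, mouse 6 was high for Cyp2c23 (13.17, next 12.92) and Cyp2d13 (11.45, next 11.11), and mouse 2 was low for Cyp2d11 (5.13, next 5.5). Among fish oil germ-free mice, Cyp2a22 was low in mouse 5 (6.73, next 7.64), Cyp2d40 was high in mouse 2 (9.95, next 9.78) and Cyp2d9 was high in mouse 6 (12.64, next 12.56). Among fish oil conventional mice, Cyp2j9 was high in mouse 3 (9.5, next 8.51) and Cyp2s1 was low in mouse 1 (6.44, next 6.61). The diet effect on Cyp2s1 differed between germ-free and conventional mice by -0.49 (adjusted p = 0.0412 in limma).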

How the results depend on the processing

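No difference of a called gene changed sign under any alternative. Of the 17 genes called for diet in germ-free mice, Cyp2a22, Cyp2c23, Cyp2c29, Cyp2c50 and Cyp2c54 were called in all 38 alternatives and Cyp2g1 in all 37 that tested it. The number called there fell from 17 to 8 when the clock index entered as a covariate and was also 8 without germ-free mice 5 and 6. Leaving out 1 sample gave 13 to 18. It was 23 with the 2 groups alone, 21 using array weights, and 20 with Saa1 or without fish oil conventional mice 5 and 6. After scaling to equal medians it was 13. With the filter on low signal, which removes 6 of the 17 genes before the test, it was 12. For diet in conventional mice (1 called), the count was 2 with the filter on low signal, 3 after scaling to equal medians, 4 using array weights, 3 with Saa1 as a covariate, and 0 with the 2 groups alone, with the clock index or without fish oil conventional mice 5 and 6; leaving out 1 sample gave 0 to 6, the highest without fish oil conventional mouse 4. For status on lard (2 called), it was 9 with array weights, 6 with the 2 groups alone, 5 with Saa1, 5 without fish oil conventional mice 5 and 6, 1 without germ-free mice 5 and 6, and 1 to 4 leaving out 1 sample, the highest without lard germ-free mouse 6. For status on fish oil (3 called), it was 6 after scaling to equal medians, 6 using array weights and 6 over 24 separate arrays, and 2 to 7 leaving out 1 sample, the highest without fish oil conventional mouse 3. For the difference of diet effects (1 called), it was 0 after scaling to equal medians, with a second quantile normalization or without germ-free mice 5 and 6, and 0 to 3 leaving out 1 sample, the highest without lard germ-free mouse 6. It was also 0 with the filter on low signal, which removes the called gene, Cyp2s1, before the test and so says nothing about that call. Of 33 same-numbered pairs, 10 correlated above 0.1 (range -0.335 to 0.32). Pairs of different numbers were not compared, so these values do not show whether mouse numbers pair the samples. With the mouse number as a replicate block the counts were 1, 15, 2, 3 and 0. The cause of these changes was not tested. For the alternatives the share of all genes called was not taken. The counts therefore do not show whether a change was particular to P450 genes.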
